A study of Mus musculus with 12 samples.

Results

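The comparison described here set mouse embryonic stem cells carrying a doxycycline (dox)-inducible Tcf15-E47 after 24 h of dox against the same cells without dox. It rests on 4 of the 12 Illumina BeadChip arrays of the study, 2 per group, taken by their labels from the deposited table of log2 values, in which 32093 of 38561 probes had 1 gene. All cells were of the E14tg2a line, strain 129/P2, grown in GMEM with LIF and FCS, and dox was added at 1 µg/mL. The other groups, of 2 arrays each, were Tcf15-E47 cells after 8 and 12 h of dox and parental cells after 0 and 8 h. The labels give neither the promoter behind the construct nor whether the line was 1 clone, and none says that the replicates were separate cultures, so p-values measure only the spread between these samples, which may be technical. Parental arrays at 24 h were not analysed here, so an effect of the construct at 24 h cannot be told apart from one of dox alone or of longer culture.

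Tcf15 belongs to the helix-loop-helix (bHLH) transcription factors and is best known from the somites, the blocks of paraxial mesoderm that give muscle and skeleton. Such factors bind DNA as dimers with E proteins, among them E47, a splice product of the gene Tcf3, at a short motif called the E-box, and Id proteins hold E proteins in dimers that cannot bind DNA. Tethering Tcf15 to E47 gives a ready-made dimer. Mouse embryonic stem cells in serum and LIF shift between a naive state, held by factors such as Nanog, Klf2 and Tfcp2l1, and a formative state marked by Otx2 and Fgf5, from which lineages are later chosen. FGF signalling through ERK moves cells out of the naive state, while LIF and BMP signals hold them in it.

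Over the 12 arrays the median signal ran from 88.49 to 102.2 units, 30.7% to 34.7% of probes were detected above negative controls, and the r between replicate arrays, taken over genes that are not independent of each other, was 0.9963 to 0.9981. The 24 h arrays had the highest medians, at 100.2 and 102.2, against 92.92 and 88.49 without dox. All 8 markers of embryonic stem cell identity, among them Pou5f1, Sox2, Sall4 and L1td1, were detected on both arrays of each group compared. Levels below are log2 signals, quantile normalized and not background subtracted, so differences of dim probes are understated. With 2 arrays a group, their number sets the precision.

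After 24 h, 245 of 10093 tested genes were higher and 321 lower (2.43% and 3.18% of those tested, 5.61% together; limma, adjusted p under 0.05). Of all genes 2010 had an unadjusted p under 0.05. The arrays of both groups did not overlap for any of the 566 called genes, whereas this separation held for 24.2% of all genes upward and 24.3% downward. Most differences were small on this scale: the median called gene moved by 0.321 log2 units, and only Hopx passed 2-fold. With neqc background correction the median over the same genes was 0.462, and other genes, among them Prr19, passed 2-fold, as given below. The split depended on scaling: 24 genes were higher and 13 lower with median scaling in place of quantile normalization, and 220 higher and 80 lower with background correction and median scaling, which moves the median of all genes by 0.119. Of the 107 called genes that are named, 80 lost their call with median scaling and 43 with background correction and median scaling. The 25 that held under every setting tried were Prr19, Ramp2, Dusp4, Id3, Irf1, Ccno, Tgfbi, Iffo2, Eva1b, Pafah1b3, Gbp2, Gbp2b, Peg3, Plcg2, Cdh3, Chst1 and Rbbp7 upward, and Hopx, Nanog, COX2, ND4, Mras, Gpr83, Myl4 and Spen downward. The authors' deposited table holds single probes, 38561 of them, with 269 higher and 314 lower at the same threshold. Those counts cannot be set against counts of filtered genes. Named called genes that did not pass there were Tcf3, Sox2, Klf2, Pou3f1, Cpe, Mmp2, Dcn, Tcof1, CYTB, Dync1h1 and Ddit4. Dusp6, Hes6, Lefty1, Mest, Rps3, Hspe1, Hsph1 and St6gal1 did not either, and the other named called genes passed. Leaving out 1 array gave 367 called genes without replicate 1 at 24 h, 271 without replicate 2 at 24 h, 181 without replicate 1 at 0 h and 166 without replicate 2 at 0 h.

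**Figure D1:**
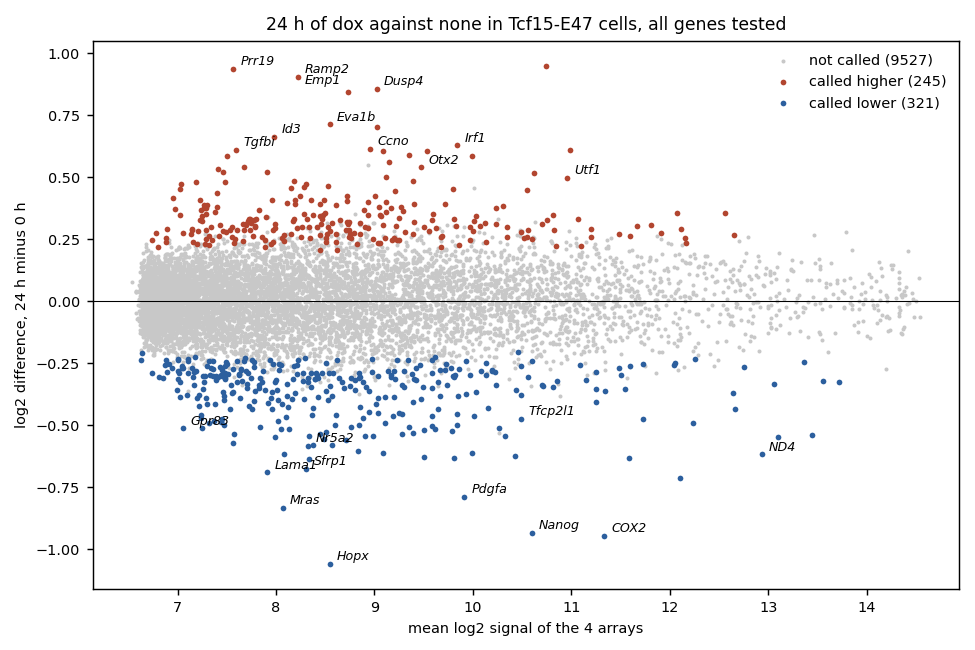
Log2 difference of each tested gene (24 h minus 0 h of dox, vertical axis) against its mean log2 signal on the 4 arrays (horizontal axis), with the 245 genes called higher in red, the 321 called lower in blue and the rest in grey. Among named genes Prr19 and Ramp2 lie at the top at 0.94 and 0.91, and Hopx, COX2 and Nanog at the bottom at −1.06, −0.95 and −0.93.

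The transcripts behind the construct were read first. Tcf15 read 10.05 and 10.07 without dox and 10.12 and 10.19 at 24 h on its probe, a difference of 0.09 ± 0.068 (SE; limma adjusted p = 0.493), and parental cells without dox read 10.23 and 10.19. The Tcf15 probe thus did not separate dox-treated from untreated cells, and whether it lies within the construct is not given in the sources used here. Tcf3, the gene of E47, read 6.77 and 6.81 without dox, 7.19 and 7.39 at 8 h, 7.37 and 7.41 at 12 h, and 7.04 and 7.28 at 24 h. All 6 dox-treated arrays stood above the untreated ones and above all 4 parental arrays, which read 6.67 to 6.83. At 24 h Tcf3 rose by 0.37 ± 0.087 (limma adjusted p = 0.0231), or by 0.93 after background correction, and its other probe, ILMN_2596277, by 0.40. The call was lost without replicate 2 at 24 h (0.25, adjusted p = 0.181) and without either untreated array. The authors' deposited table gives Tcf3 the same log2 fold with an adjusted p of 0.0637.

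Prr19, a proline-rich protein that takes part in meiotic recombination in mouse germ cells, had the largest rise of a named gene. It read 7.10 on both untreated arrays, 8.09 and 7.98 at 24 h, and between 7.03 and 7.17 on the parental arrays. The 24 h arrays were above every untreated and parental array, and Prr19 rose by 0.94 ± 0.0611 (limma adjusted p = 6.6e-07), or 1.60 with background correction, and its second probe rose by 0.32. Its level at 12 h was already 8.08 and 8.14, and the difference between 24 h and 12 h did not pass (−0.08, adjusted p = 0.554). Ccno, a cyclin-like protein needed for making many centrioles in ciliated cells, read 8.64 and 8.66 without dox, 9.63 and 9.55 at 12 h, and 9.28 and 9.26 at 24 h. It rose by 0.62 ± 0.0615 (limma adjusted p = 5.55e-05) against no dox and was lower at 24 h than at 12 h, by −0.32 (adjusted p = 0.0107). A probe without a gene name, ILMN_2660466, rose by 0.95.

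Ramp2, which escorts the calcitonin receptor-like receptor to the cell surface and sets its response to adrenomedullin, rose later. Ramp2 read 7.79 and 7.74 without dox, 7.87 and 7.84 at 8 h, 8.38 and 8.20 at 12 h, and 8.72 and 8.62 at 24 h. The 24 h arrays were the highest of all 12, and parental cells read 7.47 to 7.72. Ramp2 rose by 0.91 ± 0.0815 (limma adjusted p = 2.22e-05) and stood 0.38 above its 12 h level (adjusted p = 0.0223). The receptor it serves, Calcrl, was not detected at 24 h. Emp1, an epithelial membrane protein of the tetraspan family, rose by 0.84 ± 0.132 (limma adjusted p = 0.00167), from 8.27 and 8.36 to 9.14 and 9.18. One parental array at 8 h of dox read 8.72 for Emp1 and the other 8.13, a wider spread than in the Tcf15-E47 groups.

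Hopx, an atypical homeodomain protein that binds no DNA and acts through partner factors, had the largest fall. Hopx read 9.11 and 9.05 without dox, 8.93 and 8.93 at 8 h, 8.73 and 8.62 at 12 h, and 8.00 and 8.04 at 24 h. The 24 h arrays were the lowest of all 12, below the parental arrays at 8.57 to 8.70. Hopx fell by 1.06 ± 0.0653 on the log2 scale (limma adjusted p = 6.6e-07), and by 1.34 with background correction. Mras, a RAS-like GTPase that helps activate RAF kinases, read 8.46 and 8.51 without dox, 7.80 and 7.88 at 12 h, and 7.73 and 7.58 at 24 h. It fell by 0.83 ± 0.0736 (limma adjusted p = 2.01e-05), the parental arrays lay at 8.57 to 8.77, and its second probe fell by 0.56. Pdgfa, a growth factor ligand made by epiblast cells for neighbouring primitive endoderm, fell by 0.79 ± 0.0923 (limma adjusted p = 0.000238), from 10.44 and 10.17 to 9.53 and 9.51.

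**Figure D2:**
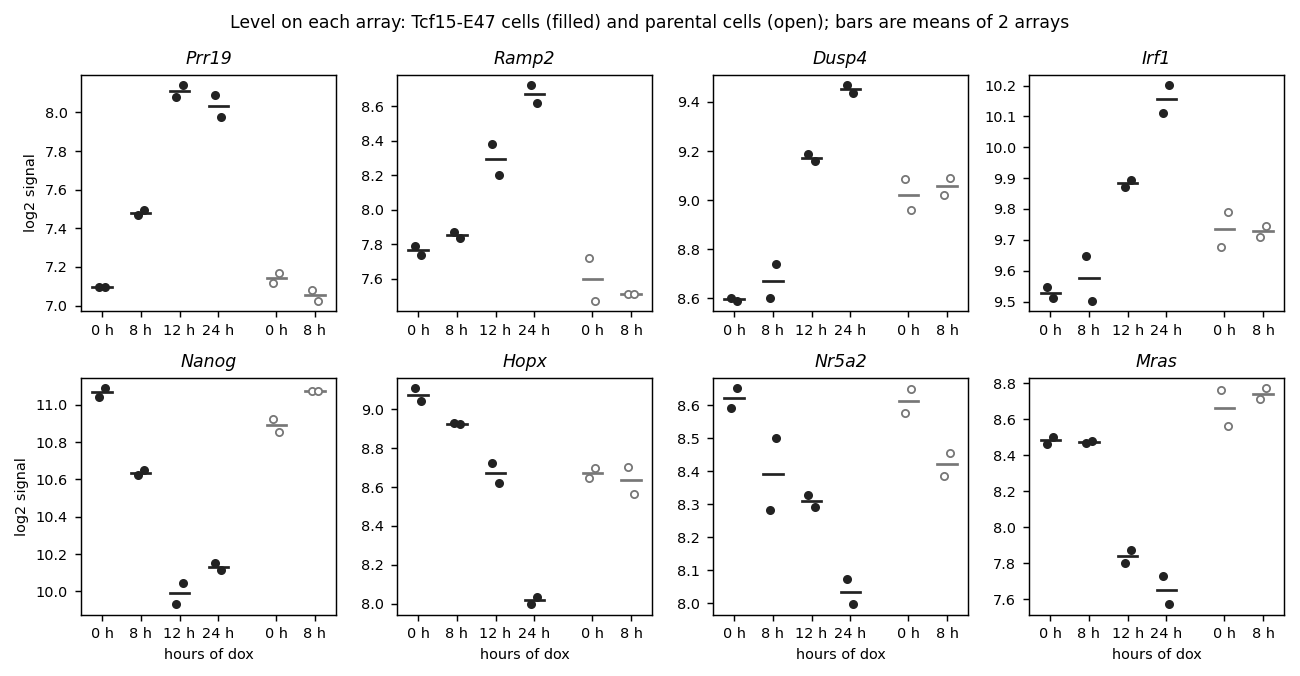
Log2 signal of 8 genes on each array, by hours of dox (horizontal axis), with Tcf15-E47 cells as filled points, parental cells as open points and group means of 2 arrays as bars. Ramp2, Dusp4 and Irf1 were highest at 24 h, Hopx, Nr5a2 and Mras lowest at 24 h, and Nanog lay at 10.15 and 10.11 at 24 h, below every untreated and parental array.

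Other large rises are given with what each gene is known for. Eva1b (0.71 ± 0.0906), Tgfbi (0.61 ± 0.0609), a secreted matrix protein that binds integrins, Iffo2 (0.59 ± 0.0635) and Pafah1b3 (0.58 ± 0.0849), a catalytic subunit of the platelet-activating factor acetylhydrolase, rose with limma adjusted p from 5.55e-05 to 0.00109. Tgfbi read 7.30 and 7.29 without dox and 7.93 and 7.88 at 24 h, with every parental array at or below 7.33, but its second probe differed by 0.14 without passing. Rbbp7, a histone-binding subunit of several chromatin complexes, rose by 0.50, and 2 of its other probes rose as well, by 0.54 and 0.40. Plcg2 (0.49), a phospholipase that relays receptor signals, Cpe (0.52), a carboxypeptidase of the secretory path, Chst1 (0.47, or 1.15 with background correction), a sulfotransferase, and Pdzrn3 (0.45, or 1.11), a ubiquitin ligase, also rose. The call of Cpe was lost without replicate 2 at 24 h and without either untreated array, at an adjusted p of up to 0.112, and that of Pdzrn3 without either untreated array, at up to 0.0643.

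Some rises brought genes to readings near those of untreated parental cells. Zyx, a focal adhesion protein, rose from 9.25 and 9.23 to 9.80 and 9.89, while untreated parental cells read 9.83 and 9.84. For Peg3, an imprinted zinc finger gene, the levels were 7.98 and 7.89 without dox, 8.44 and 8.40 at 24 h, and 8.26 and 8.38 in parental cells. Peg3 had a second probe that differed by 0.07. Plekha1, an adaptor for phosphoinositides, rose by 0.52 to 10.78 and 10.98, against 10.76 and 10.63 in parental cells, and its other probes differed by 0.11 and −0.04. In all 3 genes the untreated Tcf15-E47 arrays were below the untreated parental ones, and the 24 h arrays did not differ from the latter by test (0.01, 0.10 and 0.18; limma adjusted p = 0.974, 0.359 and 0.115).

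Other large falls are given in the same way. Sfrp1, a secreted WNT antagonist, fell by 0.68 ± 0.0871 on the log2 scale, Kat6b, a histone acetyltransferase, by 0.63, Msc, a bHLH repressor, by 0.61, and Tfap2c, an AP-2 factor of germline and trophoblast, by 0.60 (limma adjusted p from 0.000136 to 0.000471). Msc read 8.42 and 8.35 without dox and 7.79 and 7.75 at 24 h. Spink1, a secreted protease inhibitor, fell by 0.61, Cds1, a lipid enzyme, by 0.58, Serpinb6c by 0.55, and the myosin light chains Myl4 and Mylpf by 0.57 and 0.55. Lgals3, a galactose-binding lectin, fell by 0.63, Cbr3, a carbonyl reductase, by 0.63 and Setd1b, a histone methyltransferase, by 0.56. Tcof1 (−0.63), a nucleolar protein, Snhg16 (−0.58), a noncoding host of snoRNAs, and Upf1 (−0.54), of nonsense-mediated decay, fell to levels that did not differ from untreated parental cells by test (−0.20, −0.13 and −0.16; limma adjusted p = 0.348, 0.503 and 0.202). Tcof1 stood at 9.95 and 9.68 without dox and 9.41 and 8.97 at 24 h, against 9.23 and 9.55 in untreated parental cells. Without single arrays the calls of Cbr3 and Tcof1 were lost for replicate 2 at 24 h and replicate 1 at 0 h (adjusted p up to 0.127), and that of Snhg16 for replicate 1 at 0 h (0.0923). Second probes of Snhg16 (−0.60), Mylpf (−0.60) and Cbr3 (−0.55) fell too, while those of Kat6b (−0.00), Upf1 (−0.04 and −0.21) and Tcof1 (−0.10 and −0.21) did not pass.

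Because bHLH dimers bind E-boxes, the promoters of the strongly changed genes that hold one of 2 E-box forms are shown. The windows are RefSeq promoters of build GRCm38.p6, from 250 bases before to 50 after a gene's start, and were searched on both strands for CAGCTG and CAGGTG, the latter reading CACCTG on the other strand. Of 29 genes looked up (those always named and the 10 largest rises and falls), 20 had a window and 9 held a match, 7 of them called. Id2 and Pou5f1 held a match and were not called. Windows of Prr19, Emp1, Tgfbi, Id3, Otx2, Pdgfa, Tcf3, Sox2, Fgf5, Kat6b and Cbr3 held none. Nor did the other windows of Hopx, Irf1 and Nr5a2. The 9 of 20 counts genes, some with several windows, and cannot be set against the shares of windows given below. Capitals mark the matches, and each window reads 5′ to 3′ along the gene.
Ccno, higher: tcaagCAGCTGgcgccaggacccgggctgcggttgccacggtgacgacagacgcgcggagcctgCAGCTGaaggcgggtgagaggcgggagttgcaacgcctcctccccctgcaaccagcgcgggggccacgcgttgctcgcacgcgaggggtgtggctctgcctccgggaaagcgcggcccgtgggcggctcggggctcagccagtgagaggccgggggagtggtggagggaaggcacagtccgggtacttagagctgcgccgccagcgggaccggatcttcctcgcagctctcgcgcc
Eva1b, higher: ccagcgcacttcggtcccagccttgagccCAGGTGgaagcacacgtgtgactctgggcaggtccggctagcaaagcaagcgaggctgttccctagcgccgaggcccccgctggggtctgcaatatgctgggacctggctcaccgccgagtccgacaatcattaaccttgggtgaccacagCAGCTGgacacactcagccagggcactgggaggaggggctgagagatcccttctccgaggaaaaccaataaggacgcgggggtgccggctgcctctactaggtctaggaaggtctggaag
Irf1, higher, first of 2 promoters: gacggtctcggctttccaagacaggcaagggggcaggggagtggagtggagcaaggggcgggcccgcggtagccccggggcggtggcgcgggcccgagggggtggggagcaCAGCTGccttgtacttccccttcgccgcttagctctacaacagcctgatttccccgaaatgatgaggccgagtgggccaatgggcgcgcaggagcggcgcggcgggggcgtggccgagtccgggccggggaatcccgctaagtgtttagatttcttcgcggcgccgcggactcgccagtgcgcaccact
Nanog, lower, first of 2 promoters: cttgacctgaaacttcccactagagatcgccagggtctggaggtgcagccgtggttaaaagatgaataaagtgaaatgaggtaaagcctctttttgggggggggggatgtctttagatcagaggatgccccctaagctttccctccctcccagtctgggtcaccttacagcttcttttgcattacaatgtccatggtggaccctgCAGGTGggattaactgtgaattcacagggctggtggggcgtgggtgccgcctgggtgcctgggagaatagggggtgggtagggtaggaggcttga
Hopx, lower, first of 2 promoters: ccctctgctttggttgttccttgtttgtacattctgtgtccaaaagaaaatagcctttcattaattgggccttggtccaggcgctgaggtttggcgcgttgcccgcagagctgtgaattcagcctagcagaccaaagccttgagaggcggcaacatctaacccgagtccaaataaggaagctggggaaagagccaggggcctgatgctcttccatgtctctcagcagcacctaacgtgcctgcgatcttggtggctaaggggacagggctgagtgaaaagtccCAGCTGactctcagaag
Mras, lower: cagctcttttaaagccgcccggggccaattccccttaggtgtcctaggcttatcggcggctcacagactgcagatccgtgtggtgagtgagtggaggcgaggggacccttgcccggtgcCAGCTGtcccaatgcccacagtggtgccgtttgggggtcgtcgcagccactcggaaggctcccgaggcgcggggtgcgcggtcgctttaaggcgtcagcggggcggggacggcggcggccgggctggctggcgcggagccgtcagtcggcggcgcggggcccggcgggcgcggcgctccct
Nr5a2, lower, second of 2 promoters: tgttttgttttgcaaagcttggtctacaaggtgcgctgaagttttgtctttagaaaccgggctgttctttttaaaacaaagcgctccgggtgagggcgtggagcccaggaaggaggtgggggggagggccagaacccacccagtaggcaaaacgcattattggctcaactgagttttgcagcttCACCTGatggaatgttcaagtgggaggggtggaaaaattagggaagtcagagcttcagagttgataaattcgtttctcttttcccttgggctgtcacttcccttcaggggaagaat

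The window of Ccno lies at chr13:112987552-112987851 on the plus strand and holds 2 CAGCTG, starting at bases 6 and 65 of the window. Eva1b (chr4:126147753-126148052, plus strand) holds CAGGTG at base 30 and CAGCTG at base 181, and Irf1 (chr11:53769764-53770063, plus strand) holds CAGCTG at base 112. Nanog (chr6:122707239-122707538, plus strand) holds CAGGTG at base 206, Hopx (chr5:77115074-77115373, minus strand) CAGCTG at base 284, Mras (chr9:99436663-99436962, minus strand) CAGCTG at base 120, and Nr5a2 (chr1:136953581-136953880, minus strand) CACCTG at base 185. Matches thus stood in windows of genes that rose and of genes that fell. One of these forms was present in 33.8% of 231 windows of genes called higher, in 36.8% of 266 windows of genes called lower, in 29.9% of 8967 windows of all named genes tested and in 32.9% of all 32851 windows. The general form CANNTG, which takes in both, was in 61.9%, 65.0%, 63.2% and 72.3%. Windows were found for 179 of 209 named genes called higher and 202 of 268 called lower. A match describes the letters of the window and not binding.

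Counts by gene list are given from here on, while of all genes tested 2.43% were called higher and 3.18% lower. Lists and members were chosen with earlier results of these data known, so their counts were not tested. Of 463 list genes tested 77 were called. Among bHLH partners and Id inhibitors, 4 of 11 tested genes rose and 1 fell, with a median difference of 0.06 (0.18 with neqc background correction and 0.22 with background correction and median scaling), against −0.00019 over all genes tested. Id3 read 7.69 and 7.62 without dox and 8.31 and 8.32 at 24 h, a rise of 0.66 ± 0.0613 (limma adjusted p = 2.8e-05). Id1 read 10.85 and 10.52 without dox and 11.31 and 11.28 at 24 h, a rise of 0.61 ± 0.0896 (limma adjusted p = 0.00113). For both genes the 24 h arrays were above every untreated and parental array. Id2 read 8.87 and 8.70 without dox and 9.06 and 8.89 at 24 h, so the 24 h arrays lay just above, and did not pass (0.19 ± 0.0852, adjusted p = 0.221). Its probe ILMN_1236868 rose by 0.32 (adjusted p = 0.0243 over all kept probes) and the third differed by −0.01. Id4 differed by 0.01. Hes6, a bHLH factor that promotes neural differentiation, rose by 0.32 (adjusted p = 0.0297), a call lost when any 1 of the 4 arrays was left out. Neurog3, a proneural bHLH factor of the pancreas, fell by 0.46 (adjusted p = 0.00153), and the E protein genes Tcf4 (−0.16) and Tcf12 (0.06) did not pass.

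Of 16 naive pluripotency genes tested, 6 fell and 1 rose, with a median of −0.20 (−0.42 with neqc background correction and −0.32 with background correction and median scaling). Of all genes tested 3.18% fell and 2.43% rose, and this list too was chosen with earlier results of these data known. Nanog read 11.05 and 11.09 without dox, 10.62 and 10.65 at 8 h, 9.93 and 10.05 at 12 h, and 10.15 and 10.11 at 24 h, a fall of 0.93 ± 0.061 on the log2 scale (limma adjusted p = 6.6e-07). Parental cells read 10.86 to 11.08, so the 24 h arrays were below all of them, and both were above the 12 h arrays, a difference that did not pass (0.14 ± 0.061, adjusted p = 0.231). The second Nanog probe fell by 0.49. Nr5a2, an orphan nuclear receptor that can bind the Pou5f1 promoter region, read 8.59 and 8.65 without dox and 8.07 and 8.00 at 24 h, a fall of 0.58 ± 0.0725 (limma adjusted p = 0.00038), and its second probe fell by 0.27. In parental cells Nr5a2 read 8.58 and 8.65 without dox and 8.39 and 8.46 after 8 h of dox (−0.19, not passing), still above every 24 h array.

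The other 4 naive genes that fell were Tfcp2l1 (−0.48), Tcl1 (−0.46), Klf2 (−0.41) and Tbx3 (−0.38). The second Tcl1 probe differed by 0.04 and the second Tbx3 probe fell by 0.47. Of the 6 falls, that of Nanog alone held under every setting. Nr5a2 was lost with median scaling (adjusted p = 0.0533), and the 4 others both with median scaling and with background correction and median scaling. Klf2 was also lost with neqc and with no filter. With single arrays left out, the calls of Nanog and Nr5a2 held, that of Tcl1 was lost without replicate 1 at 0 h (adjusted p = 0.0514), that of Tbx3 without replicate 2 at 24 h or replicate 1 at 0 h (up to 0.138), that of Tfcp2l1 without replicate 1 at 24 h or either untreated array (up to 0.0774), and that of Klf2 when any 1 of the 4 arrays was left out (up to 0.163). Gbx2, a homeobox gene of the same list, rose by 0.29, also lost when any 1 of the 4 arrays was left out. Esrrb (−0.20), Zfp42 (−0.20), Prdm14 (−0.21), Klf4 (−0.04), Klf5 (0.06) and Dppa3 (0.01) did not pass. Of the naive list 16 genes were detected on both untreated arrays and 14 on both 24 h arrays. Prdm14 and Nr0b1, which did not pass either, were not detected at 24 h, so the difference of Prdm14 may be understated. Of 11 tested genes of the LIF and STAT3 path, which holds the naive state, 0 were called, with Socs3 at 0.18 and Bcl3 at −0.19.

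Of 12 general pluripotency genes tested, 1 rose and 1 fell, with a median of −0.03 (0.01 with median scaling). Pou5f1, a core factor of all pluripotent states, read 12.13 and 12.19 without dox and 11.92 and 12.05 at 24 h, and did not pass (−0.18 ± 0.0737, adjusted p = 0.187). Sox2, its partner, fell by 0.28 ± 0.0752 (limma adjusted p = 0.0446), from 8.13 and 8.20 to 7.98 and 7.80. That call was lost without replicate 2 at 24 h (−0.18) and without either untreated array. It was also lost with neqc, with median scaling with or without background correction, with no filter and with only the compared arrays. The authors' deposited table gives the tested Sox2 probe an adjusted p of 0.0823, and the second Sox2 probe differed by −0.11. Utf1, a chromatin factor of pluripotent cells, rose by 0.50 ± 0.0858 (adjusted p = 0.00376), from 10.76 and 10.66 to 11.23 and 11.19, with parental cells at 10.84 to 11.15. Its call was lost without replicate 2 at 0 h (0.0561).

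Of 12 formative and primed epiblast genes tested, 5 rose and 0 fell, with a median of 0.10 (0.16 with median scaling and 0.22 with background correction as well). Of all genes tested 2.43% rose, and the list was chosen with earlier results known. Otx2, the homeobox factor that drives the formative state, read 9.21 and 9.20 without dox, 9.17 and 9.19 at 8 h, 9.82 and 9.78 at 12 h, and 9.72 and 9.77 at 24 h. It rose by 0.54 ± 0.0699 (limma adjusted p = 0.000479), and the 24 h and 12 h arrays were above all untreated and parental ones. Pou3f1, a POU factor of the epiblast, rose by 0.59 ± 0.121 (adjusted p = 0.0115), from 9.19 and 8.92 to 9.78 and 9.52. Pim2, a serine and threonine kinase, rose by 0.39 and Etv5, an ETS factor downstream of FGF, by 0.35. Fgf5, the ligand most used to mark these cells, read 6.77 and 6.73 without dox and 6.97 and 7.11 at 24 h, a rise of 0.29 ± 0.0653 (adjusted p = 0.0175), or 0.81 with background correction. The untreated readings lay just above the lowest detected values of those arrays, 6.72 and 6.7, so the size of the Fgf5 rise is poorly fixed. Untreated parental cells read 7.10 and 7.09 for Fgf5, so 1 of its 24 h arrays lay below and 1 just above both. All 5 calls were lost with median scaling, that of Otx2 at an adjusted p of 0.0901. With single arrays left out that of Otx2 held, and the others were lost without replicate 1 at 24 h or replicate 2 at 0 h (Pou3f1, adjusted p up to 0.128), without replicate 2 at 24 h or either untreated array (Pim2 and Fgf5, up to 0.143) and when any 1 of the 4 arrays was left out (Etv5, up to 0.118). Lef1, Sox4, Etv4, Zic2 and Dnmt3b, also of this list, lay between −0.15 and 0.13.

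**Figure D3:**
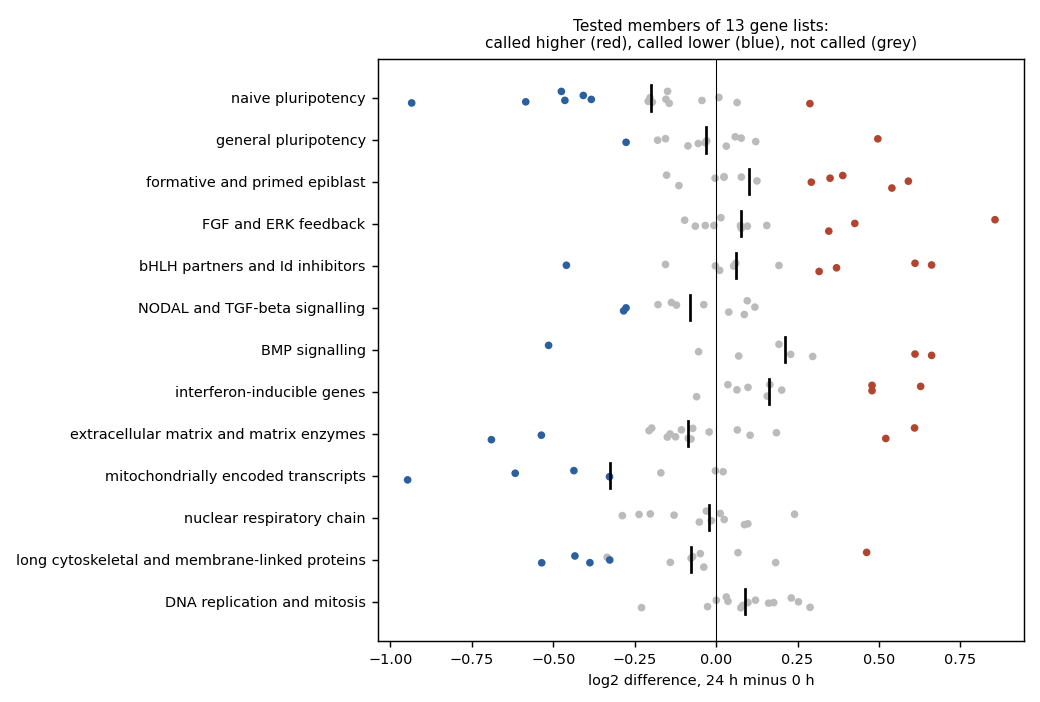
Log2 difference (24 h minus 0 h of dox, horizontal axis) of each tested member of gene lists (rows), with called genes in red and blue, other genes in grey, and the list's median as a black bar. The medians of naive pluripotency and mitochondrially encoded transcripts lie at −0.20 and −0.33, and those of formative and interferon-inducible genes at 0.10 and 0.16.

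Of genes of the FGF path, 1 of 7 ligands and receptors and 2 of 9 RAS genes were called lower. Of 12 feedback genes 3 were called higher. The median of the ligands and receptors was −0.11 (−0.09 with median scaling), and a direction of the path as a whole was not tested. Fgf17, a ligand, read 8.72 and 8.59 without dox and 8.06 and 7.97 at 24 h, a fall of 0.64 ± 0.0814 (limma adjusted p = 0.000438), with parental cells at 8.88 to 9.04. Its dimmer probe differed by −0.09. Of 7 ligands and receptors tested no other passed: Fgf4 differed by −0.15, Fgf15 by −0.18, Fgfr1 by 0.09 and Fgfr2 by 0.21. Of 9 RAS genes Mras fell, as above, and Eras, a RAS protein of embryonic stem cells, fell by 0.33 (adjusted p = 0.00648), while Nras differed by 0.24 (adjusted p = 0.0878). The Eras call was lost without replicate 2 at 24 h or either untreated array. It was also lost with neqc and with median scaling, with or without background correction. The median of the RAS list was −0.04 (0.04 with median scaling).

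Dusp4, a phosphatase that inactivates MAP kinases in the nucleus, read 8.60 and 8.59 without dox, 8.60 and 8.74 at 8 h, 9.19 and 9.16 at 12 h, and 9.47 and 9.44 at 24 h. Its 24 h arrays were the highest of all 12. Dusp4 rose by 0.86 ± 0.066 (limma adjusted p = 4.86e-06), stood 0.28 above its 12 h level (adjusted p = 0.0336), and its 2 other kept probes rose by 0.65 and 0.62. Before dox it was below parental cells, which read 9.09 and 8.96, and at 24 h it was 0.43 above them (adjusted p = 0.000518). Spry4, an inhibitor of receptor tyrosine kinase signalling, rose by 0.43 (adjusted p = 0.00812) and Dusp6, the phosphatase of cytoplasmic ERK, by 0.35 (adjusted p = 0.0259), both lost without replicate 2 at 24 h or replicate 1 at 0 h (up to 0.221). Median scaling also removed the call of Spry4. That of Dusp6 was lost with neqc, with median scaling with or without background correction, with no filter and with only the compared arrays. The authors' deposited table gives Dusp6 an adjusted p of 0.064. Dusp6 at 24 h read 10.93 and 11.05 and overlapped untreated parental cells at 11.004 and 10.948. These 3 were the members called of 12 feedback genes tested, whose median was 0.08 (0.17 with median scaling and 0.26 with background correction as well); Spred1 (0.08), Spred2 (−0.10) and Dusp5 (0.16) did not pass. Of 7 immediate early genes 0 were called.

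In NODAL signalling, which also works in the primed epiblast, 2 of 10 genes fell and the median was −0.08 (0.00 with background correction and median scaling). The ligand Nodal fell by 0.28 (adjusted p = 0.022), from 10.42 and 10.33 to 10.07 and 10.11, and its extracellular inhibitor Lefty1 by 0.28 (adjusted p = 0.0349). Both calls were lost when any 1 of the 4 arrays was left out. They were also lost with neqc, with median scaling with or without background correction, and with only the compared arrays. In BMP signalling the ligand Bmp4 fell by 0.51 ± 0.0873 (adjusted p = 0.00338), from 9.87 on both untreated arrays to 9.20 and 9.51, while its second probe differed by −0.03. Its receptor genes Bmpr1a (0.30, adjusted p = 0.112) and Bmpr2 (−0.05) did not pass, and its target genes Id1 and Id3 rose, as above, so that 2 of 8 BMP genes were higher and 1 lower. Among 9 WNT genes Sfrp1 alone was called, with Axin2 at 0.21 and Ccnd1 at −0.19. Of 7 NOTCH genes the receptor Notch4 fell by 0.37 (adjusted p = 0.0155), lost without replicate 2 at 24 h or either untreated array (up to 0.126), and the ligand Dll1, not well above background without dox, was at least 1.15-fold higher (adjusted p = 0.0387), lost when any 1 of the 4 arrays was left out (up to 0.166).

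Of 10 interferon-inducible genes tested, 3 rose and 0 fell, 9 differed upward, and the median was 0.16 (0.49 with neqc background correction and 0.59 with background correction and median scaling). Of all genes tested 2.43% rose, and the list was chosen with earlier results known. Irf1, a transcription factor of interferon responses, read 9.55 and 9.51 without dox, 9.87 and 9.89 at 12 h, and 10.11 and 10.20 at 24 h. It rose by 0.63 ± 0.0672 (limma adjusted p = 0.000122), its 24 h arrays were the highest of all 12, and 2 of its 3 other probes rose, by 0.47 and 0.22. Gbp2 and Gbp2b, GTPases that act against intracellular pathogens, both rose by 0.48, or by 0.84 and 1.01 with background correction (limma adjusted p = 0.000618 and 0.000378). Gbp2 read 7.25 and 7.23 without dox, 7.21 and 7.10 at 12 h, and 7.66 and 7.78 at 24 h, so the 24 h arrays alone in the Tcf15-E47 series stood apart. Untreated parental cells, however, read 7.49 and 7.58 for Gbp2 and 7.29 and 7.24 for Gbp2b, and the 24 h levels did not differ from these by test (0.18, adjusted p = 0.0694, and 0.16, adjusted p = 0.0901). Stat2 (0.04), Irf9 (−0.06), Bst2 (0.06) and Oasl2 (0.20) did not pass, nor did any of 6 MHC class I genes.

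Among 17 genes of the extracellular matrix and its enzymes, 2 rose and 2 fell, with a median of −0.09 (0.02 with background correction and median scaling). The basement membrane genes Lama1, a laminin chain, and Hspg2, which encodes perlecan, fell by 0.69 and 0.54 on the log2 scale (limma adjusted p = 0.00108 and 0.00248). Lama1 read 8.20 and 8.32 without dox and 7.55 and 7.58 at 24 h, below all parental arrays at 8.14 to 8.55. The other laminin and collagen genes of the list, Lamb1 (−0.07), Lamc1 (0.10), Lama5 (−0.14), Col4a1 (−0.21), Col4a2 (−0.12) and Col18a1 (−0.20), did not pass. Mmp2, a gelatinase that cuts basement membrane collagen, rose by 0.52 ± 0.112 (adjusted p = 0.0142), a call lost without replicate 2 at 24 h or either untreated array (up to 0.112). Among 10 genes of cadherins and epithelial-mesenchymal transition, Cdh3, which encodes P-cadherin, rose by 0.53 ± 0.0777 (adjusted p = 0.0011), from 7.06 and 7.22 to 7.75 and 7.60. Cdh1, of E-cadherin, read 9.957 and 9.995 without dox and 10.14 and 9.76 at 24 h, with overlapping arrays (−0.03). Zeb1, a repressor of Cdh1, rose by 0.28 (adjusted p = 0.0317), lost when any 1 of the 4 arrays was left out (up to 0.221), while Snai1 (0.09), Vim (−0.02) and Fn1 (−0.08) did not pass.

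Of 7 mitochondrially encoded transcripts tested 4 fell and 0 rose, with a median of −0.33, which stayed between −0.45 and −0.22 under all alternatives. Of all genes tested 3.18% fell, and the list was chosen with earlier results known. COX2, a subunit of cytochrome oxidase, read 11.66 and 11.96 without dox and 10.97 and 10.76 at 24 h, a fall of 0.95 ± 0.12 (limma adjusted p = 0.000438). Parental cells read 11.47 to 11.84, above both 24 h arrays. The complex I subunits ND4 and ND1 fell by 0.62 and 0.44, and CYTB, of complex III, by 0.33, whereas ATP6 (0.02), ND5 (−0.00) and ND4L (−0.17) did not pass. The untreated arrays differed from each other in all 4 called transcripts, replicate 2 being the higher, and without it the calls of ND1 (−0.30, adjusted p = 0.0676) and CYTB (−0.22, adjusted p = 0.259) were lost. The CYTB call was also lost without either 24 h array. Of 12 nuclear genes of the respiratory chain 0 were called, with a median of −0.02 (0.01 with background correction and median scaling), and of 14 glycolysis genes 0.

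Of 10 genes of the GADD45 family and stress sensors, 2 rose and 0 fell, but only 3 differed upward. The median was −0.06 (−0.12 with neqc background correction and 0.02 with background correction and median scaling). Gadd45g rose by 0.56 ± 0.0879 (adjusted p = 0.00167) from 8.98 and 8.75 to 9.51 and 9.34, and it was already at 9.49 and 9.45 at 8 h. Ddit4, an inhibitor of mTOR signalling, rose by 0.29 (adjusted p = 0.0499). Its call was lost without replicate 1 at 24 h (0.15, adjusted p = 0.33), without either untreated array, and under 6 other settings, among them neqc and every kept probe. Of 9 heat shock genes the chaperones Hsph1 and Dnajb1 rose by 0.26 and 0.24 and Hspe1 fell by 0.32, all 3 calls lost when any 1 of the 4 arrays was left out (adjusted p up to 0.335). Chac1, a glutathione-degrading enzyme of the integrated stress response, rose by 0.41, the only member called of 14, and its call was lost without replicate 2 at 0 h (0.0629). Of 9 p53 targets and of 14 genes of DNA replication and mitosis 0 were called. The cyclin list held Ccno as its only called member of 11.

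Markers of other cell types were read next, and their part in the results was not tested. Of 14 somite and paraxial mesoderm markers, the tissue in which Tcf15 works, 2 were detected on both 24 h arrays, Tcf15 itself and Twist1 (0.09), while Meox1, Pax3, Tbx6, Foxc1 and Foxc2 were not. Of 13 endothelial markers 6 were detected at 24 h and 6 without dox. Their summed signal, background included and not normalized, was 1534 to 1719 without dox and 1965 to 2079 at 24 h. The 24 h arrays were brighter as a whole, as given above, and the sums of the somite list (2024 to 2365 and 2506 to 2715) and of a gastrulation list with 1 marker of 13 detected at 24 h (1130 to 1203 and 1298 to 1342) were higher too. Of the endothelial markers, Kdr, Cdh5, Tie1 and Flt1 were not detected at 24 h, and Ramp2 was the only one called. The 7 tested had a median of −0.07 (−0.22 with neqc background correction), with 2 differing upward. Of 13 fibroblast and smooth muscle markers 3 were detected in both groups, the collagens Col1a1, Col1a2 and Col3a1 not among them, and the summed signal of that list was 1425 to 1599 without dox and 1664 to 1805 at 24 h. The 5 tested members of that list had a median of −0.02 (0.13 with background correction and median scaling). Dcn, a fibroblast proteoglycan, rose by 0.29 (adjusted p = 0.0436). Its call was lost without replicate 2 at 24 h (0.16, adjusted p = 0.324), without either untreated array, and with neqc, median scaling, no filter or only the compared arrays. Among neural markers Elavl3, an RNA-binding protein, was the only one called of 5 tested (−0.40, adjusted p = 0.00167), and among trophoblast markers Tfap2c of 6. Among primitive endoderm markers Lama1 was the only one called of 11 tested, and 8 of 14 were detected on both arrays at 24 h and 10 without dox, with Gata4, Gata6 and Sox7 not detected at 24 h. The share of all probes detected was lower at 24 h too, at 31.8% and 31.3%, against 33.3% and 34.7% without dox. In such bulk samples fewer cells of a type and less RNA per cell cannot be told apart.

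Dox by itself was measured only at 8 h in parental cells, where limma called 0 genes higher and 0 lower of 10093, 585 having an unadjusted p under 0.05. The count was 18 without replicate 1 at 8 h, 45 without replicate 1 at 0 h and 1 without replicate 2 at 0 h. For the 10 named genes with the largest changes in Tcf15-E47 cells at 24 h, the parental differences at 8 h were −0.04 for Hopx, 0.26 for COX2, −0.09 for Prr19, 0.19 for Nanog, −0.09 for Ramp2, 0.03 for Dusp4, 0.25 for Emp1, 0.08 for Mras, −0.12 for Pdgfa and −0.12 for Eva1b. In Tcf15-E47 cells at the same 8 h, the differences were −0.15 for Hopx, −0.11 for COX2, 0.39 for Prr19, −0.43 for Nanog, 0.09 for Ramp2, 0.07 for Dusp4, 0.26 for Emp1, −0.01 for Mras, −0.24 for Pdgfa and 0.38 for Eva1b. Mean differences at 8 h were thus similar in both lines for Emp1 and for Nr5a2 (−0.19 in parental and −0.23 in Tcf15-E47 cells). Neither parental difference passed, and the parental Emp1 arrays at 8 h lay far apart, as given above. The 8 h values of Tcf15-E47 cells share the untreated arrays with the 24 h comparison.

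Between 12 h and 24 h of dox 184 genes were higher at 24 h and 182 lower, 3.63% of those tested (1.82% and 1.8%; limma, adjusted p under 0.05). The 24 h arrays are also those of the comparison with 0 h, and with median scaling 0 genes were called (946 at an unadjusted p under 0.05). Background correction with median scaling gave 54 higher and 22 lower. The gene lists were chosen with earlier results of these data known, so their counts were not tested against the share over all genes. Of 13 long cytoskeletal and membrane-linked proteins 5 were higher at 24 h than at 12 h (median 0.32), namely Akap12 (0.58), Flnc (0.49), Sptbn1 (0.44), Dync1h1, the dynein heavy chain (0.39), and Akap9 (0.37). Against no dox, Dync1h1 read 8.69 and 8.98 at 0 h, 8.12 and 8.13 at 12 h, and 8.51 and 8.51 at 24 h. Akap9, a scaffold at the Golgi and centrosome, read 8.77 and 8.67 at 0 h, 7.85 and 7.77 at 12 h, and 8.07 and 8.30 at 24 h, so it still lay below its untreated level (−0.54, adjusted p = 0.00149). Of 14 large nuclear and chromatin proteins 6 were higher at 24 h than at 12 h (median 0.23), among them Chd4 (0.51), Kmt2a (0.48) and Ep300 (0.45), and of these 14 only Spen, a repressor, differed from the untreated level (−0.49). The total count at 24 h against 12 h was 132 without replicate 2 at 24 h, 20 without replicate 1 at 12 h and 123 without replicate 2 at 12 h.

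Spink1, Hopx, Napsa, Txnip and Cyp11a1 had the largest drops between 12 h and 24 h. Hopx fell by 0.66 ± 0.0653 (limma adjusted p = 0.000195) and Spink1 by 0.77 ± 0.0703 (adjusted p = 0.000193), the latter from 10.52 and 10.38 to 9.63 and 9.74. Napsa, an aspartic protease, and Cyp11a1, the first enzyme of steroid synthesis, fell by 0.64 and 0.50 and stood at 24 h below their untreated levels too, by −0.54 and −0.44. Txnip, which binds thioredoxin and curbs glucose uptake, read 8.47 and 8.57 without dox, 9.18 and 8.98 at 12 h, and 8.53 and 8.44 at 24 h. The largest rises were in Atf4 (0.71), the transcription factor of the integrated stress response, Myh9 (0.68), a nonmuscle myosin, Dido1 (0.66), Phf3 (0.60) and Map1b (0.59), a microtubule protein. Without replicate 1 at 12 h the calls of Atf4 (adjusted p = 0.0747), Phf3 (0.0853), Map1b (0.113) and Txnip (0.0663) were lost.

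**Figure D4:**
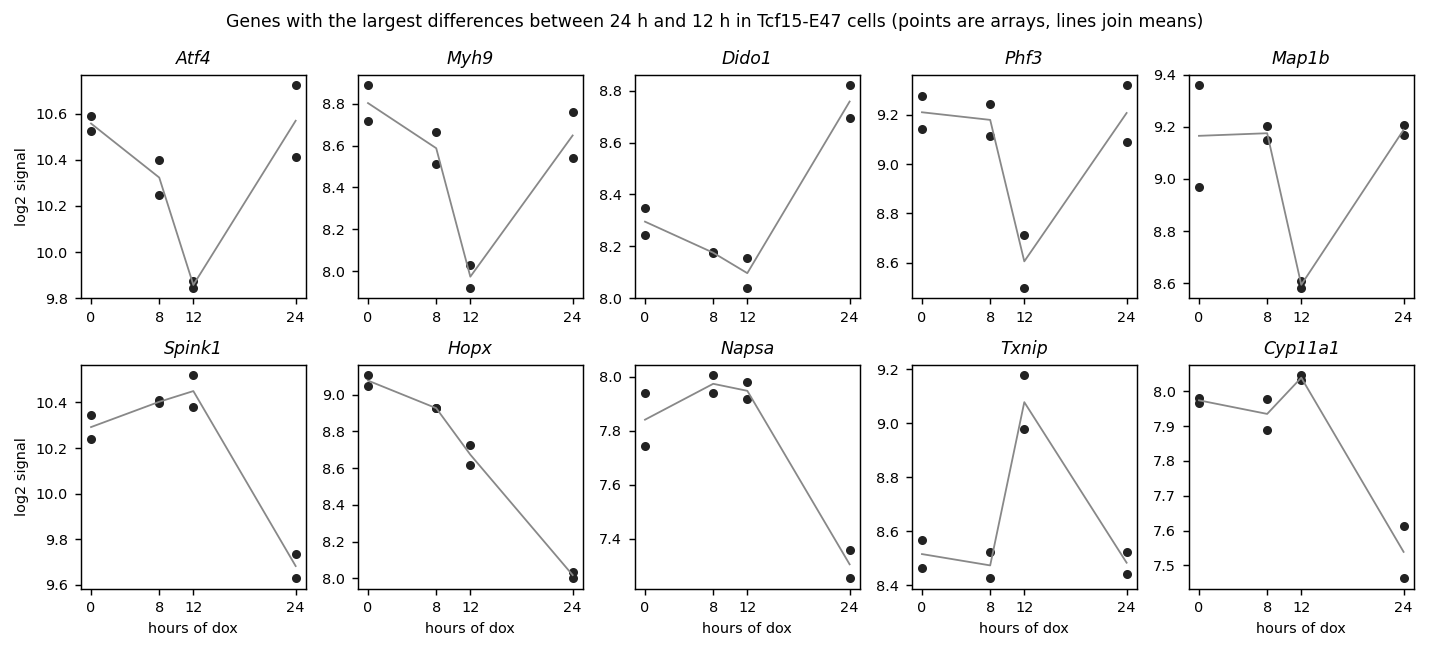
Log2 signal of the 10 genes with the largest differences between 24 h and 12 h of dox in Tcf15-E47 cells (points, 1 per array; lines join group means) against hours of dox. Atf4, Myh9, Phf3 and Map1b were lowest at 12 h and near their untreated levels at 24 h, Txnip was highest at 12 h, and the mean of Hopx was lower at each later time.

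Set against untreated parental cells, which the comparison with 0 h does not use, the 24 h arrays differed in 567 genes upward and 841 downward, 14% of those tested (5.62% and 8.33%; limma, adjusted p under 0.05). Median scaling gave 631 higher and 106 lower, and background correction with median scaling 1553 higher and 236 lower, the latter moving the median of all genes by 0.219. Line and dox cannot be told apart there, and 850 genes were called without replicate 2 at 24 h. Ramp2 stood 1.07 ± 0.0815 above parental cells (adjusted p = 1.45e-06), Emp1 0.98, Prr19 0.89 and Ccno 0.88. Usp26, a ubiquitin protease gene, had the largest gap upward, at 1.29. It read 8.16 and 8.13 at 24 h, 8.09 and 8.12 without dox and 6.86 and 6.84 in parental cells, so the Tcf15-E47 line was high with and without dox (24 h minus 0 h, 0.04). Tfap2c stood 1.24 below and Aard 1.26, Adam23 1.06, Lrrc34 1.04 and Wfdc2 1.04 below. Their differences from 0 h were smaller, at −0.60, −0.44, −0.46, −0.51 and −0.43 in that order, so part of each gap was present without dox.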

How the data were processed

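RNA was labelled with the Illumina TotalPrep kit from 100 ng and hybridised to 1-colour Illumina BeadChips, per the labels' protocols. The authors deposited log2 values, quantile normalized as far as the values show (every array had a median of 6.57), and a table of non-normalized intensity with a detection p-value per entry; limma is named in the submitters' processing notes, without a version. None of the 30854 entry names of the second table matched a probe, so 16951 entries were matched to probes by value (scikit-learn 1.9.0, pandas 2.3.3, Python 3.11.15), and all 8475 held-out entries found the same probe. The authors' deposited table of fold changes and adjusted p-values was set beside the results.

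Probes were named through the platform annotation (32093 with 1 gene, 16 with several, 6452 with none), and 13914 were kept, being detected (p under 0.01) in 2 or more arrays. The brightest probe per gene was tested, 8537 named genes and 1556 unnamed probes, with limma 3.58.1 in R 4.3.3 over all 12 arrays and Benjamini-Hochberg adjustment at 0.05. The fit was tested on simulated data. Alternatives were neqc (background correction, offset 16), median scaling, both together, no filter, every probe, trend and robust moderation, only the compared arrays, the replicate block and leaving out each array.

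Named were fixed genes, the 25 largest rises and falls, called members of 52 lists, the 5 largest each way in other comparisons, and promoters with an E-box form (at most 8). Members and lists were chosen with earlier results of these data known. A bound on a fold takes the lowest detected signal, or the probe's own where higher, on each array of the dim group.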

Additional observations from a re-analysis of the deposited data

Results flagged for a closer look

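In 10 genes the level at 24 h of dox differed from that at 12 h by a test of the difference itself (limma over all genes). Atf4 was higher at 24 h by 0.71 ± 0.111 on the log2 scale (adjusted p = 0.00374), Myh9 by 0.68 ± 0.0836 (0.00125), Dido1 by 0.66 ± 0.0708 (0.000345), Phf3 by 0.60 ± 0.0928 (0.00356) and Map1b by 0.59 ± 0.104 (0.0074). Spink1 differed by −0.77 ± 0.0703 (0.000193), Hopx by −0.66 ± 0.0653 (0.000195), Napsa by −0.64 ± 0.0838 (0.00171), Txnip by −0.59 ± 0.0836 (0.00201) and Cyp11a1 by −0.50 ± 0.0679 (0.0019). The 10 genes were picked among called genes whose 2 arrays at 24 h lay on one side of the 2 at 12 h. That separation was thus a condition of their choice and adds nothing to the test. All 10 calls were lost with median scaling, at adjusted p from 0.0574 to 0.385.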

How the results depend on the processing

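Against 0 h, the 566 called genes became 37 with median scaling, 300 with background correction and median scaling, 310 with only the compared arrays fitted, and 166 to 367 with 1 array left out. Between 12 h and 24 h, the 366 became 187 with neqc, 0 with median scaling, 76 with background correction and median scaling, 220 with only the compared arrays, and 20 to 285 with 1 array left out. In parental cells at 8 h the 0 calls became 14 with background correction and median scaling, 1 with trend and robust moderation, and 0 to 45 with 1 array left out. At 24 h against untreated parental cells the 1408 became 737 with median scaling, 698 with only the compared arrays, and 850 to 1351 with 1 array left out. The 77 called list members became 19 with median scaling and 38 to 60 with 1 array left out. The share of windows with an E-box form was 32.7% and 40.3% for genes called higher and lower with neqc. The cause of these shifts was not tested. Among the 107 named genes that were called, 58 held whichever compared array was dropped, 80 lost their call with median scaling, 43 with background correction and median scaling, 22 with neqc and 19 with only the compared arrays; 25 passed under every setting and 0 reversed. The replicate block gave 586 calls against 0 h and lost 1 named call, St6gal1. Same-numbered arrays correlated in their deviations at r from −0.155 to 0.239, and at 0.221 between the 0 h and 24 h Tcf15-E47 groups. The numbers were not taken as pairs in the main fit. Background correction with median scaling was added after seeing the data. Signal over background limits dim genes, and 9 called genes were not detected on either array of their dimmer group.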

Other observations

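Several other gene groups held single called genes after 24 h of dox. Gpr83, an orphan receptor, read 7.32 on both untreated arrays and 6.78 and 6.83 at 24 h, a fall of 0.51 ± 0.0603 on the log2 scale (limma adjusted p = 0.000238), or 1.21 with background correction. S1pr2, a receptor for sphingosine 1-phosphate, rose by 0.31 to 10.32 and 10.23, next to 10.25 and 10.26 in untreated parental cells. Wwtr1, the TAZ coactivator of Hippo signalling, rose by 0.42 and was the only one called of 10 genes of that list, but its other probes (0.14 and 0.19) did not pass. Of 8 integrin genes Itga3 rose by 0.24, and Itga9, not well above background at 24 h, was at least 1.18-fold lower (limma adjusted p = 0.0403 and 0.0159). The imprinted gene Mest fell by 0.42 and the keratin gene Krt42 by 0.31.

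The myosin genes Myl4 and Myo1f fell by 0.57 and 0.39, and no other of 16 tested myosin and sarcomere genes was called. The cytoskeletal linkers Dst and Plec fell by 0.43 and 0.39, while Flnc, a filamin, rose by 0.46 from 7.96 and 8.15 to 8.57 and 8.47. Rps3, 1 of 13 ribosomal protein genes, fell by 0.33, St6gal1, a sialyltransferase, by 0.28 and the noncoding Neat1 by 0.29. With all 4 arrays used in turn as the one left out, the calls of S1pr2, Itga3, Itga9, Rps3, St6gal1 and Neat1 were lost each time, those of Wwtr1, Mest, Krt42, Myo1f, Dst, Plec and Flnc were lost for 1 to 3 arrays, and those of Gpr83 and Myl4 for 0.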
